A study of Mus musculus with 6 samples.

Results

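The regions described here are stretches of enriched chromatin that lie at close ends of at least 2 protein-coding genes in cultured mouse group 2 innate lymphoid cells (ILC2s). They were chosen by measured values: peaks with an adjusted p under 0.05 in any of 6 CUT&Tag libraries were merged on chromosomes 1 to 19, X and Y, and a merged region was kept if it was under 4000 bp wide, had such a peak in at least 2 libraries and reached within 1 kb to either side of an end of each of 2 or more genes. This left 2049 regions, called two-end regions below, of 43759 merged regions in all. Of the 29244 merged regions under 4000 bp with a peak in at least 2 libraries, another 10149 lay at an end of exactly 1 gene (one-end regions) and 17046 at no gene end. The two-end regions touched 3875 of 21887 protein-coding genes (17.7%).

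The cells were ILC2s of mouse colon, kept in culture with the cytokines IL-33, IL-25, IL-7 and IL-2 and sorted. All 3 groups shared this culture: Control received neither agent, FK866 received the inhibitor of NAMPT, the enzyme that recycles nicotinamide into NAD, and FK866 plus succinate received the inhibitor together with succinate, a metabolite of the tricarboxylic acid (TCA) cycle. Each group had 2 libraries, and the mice's strain and age and the dose and duration of the agents were not stated. CUT&Tag cuts and tags DNA next to an antibody bound on chromatin. Since the labels do not name the antibody, a peak here is enrichment of an unnamed target. The labels do not say whether paired libraries were made from different animals or cultures, so the p values below measure only the spread between these libraries.

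Mammalian genes are often arranged with their starts back to back, a head-to-head pair, in which 1 stretch of DNA serves as the promoter of both genes on opposite strands. Such bidirectional promoters are known for housekeeping genes, including many for DNA repair and mitochondrial proteins, and are typically rich in CpG dinucleotides and poor in TATA boxes. Genes that converge bring their 3′ ends together, a tail-to-tail pair, and there the short stretch between the ends holds no known start of either gene. A head-to-tail pair has the end of 1 gene next to the start of the other.

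The 300 bases around a gene start show what lies under such a region. The first set below is of head-to-head pairs whose region had a peak in all 6 libraries, chosen to show pairs described elsewhere as sharing a promoter, pairs at NAD or succinate genes, a pair among the strongest regions and pairs whose regions were narrower with FK866 plus succinate. Each sequence is the plus strand of RefSeq's GRCm38.p6 (mm10), 5′ to 3′, and base 251 is the start of the first-named gene in the promoter table. Starts given by base number come from that table and can differ from the ends of the gene spans. The distances between starts of a pair use the gene spans. Capitals mark matches on either strand to 8 motifs: the GC box GGGCGG, the CCAAT box CCAAT, the TATA box TATAAA, the E-box CACGTG, the ETS site CCGGAAG, the NRF1 core GCATGCGC, the CRE TGACGTCA and the YY1 core AAGATGGC. None of these strings lies inside another, though neighbouring matches can overlap.
Hspe1/Hspd1: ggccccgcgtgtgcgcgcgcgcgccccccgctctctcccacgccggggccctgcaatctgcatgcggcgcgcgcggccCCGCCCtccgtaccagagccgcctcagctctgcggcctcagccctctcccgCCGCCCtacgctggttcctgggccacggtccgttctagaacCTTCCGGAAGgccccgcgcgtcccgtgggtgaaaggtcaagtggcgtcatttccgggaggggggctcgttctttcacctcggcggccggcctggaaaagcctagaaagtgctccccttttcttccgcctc
Tap1/Psmb9: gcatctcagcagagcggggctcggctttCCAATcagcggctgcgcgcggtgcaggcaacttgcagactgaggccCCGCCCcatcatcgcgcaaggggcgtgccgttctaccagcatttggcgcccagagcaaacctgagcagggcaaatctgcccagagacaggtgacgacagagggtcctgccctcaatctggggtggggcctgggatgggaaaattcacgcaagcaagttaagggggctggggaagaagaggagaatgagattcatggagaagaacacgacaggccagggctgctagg
Ccdc127/Sdha: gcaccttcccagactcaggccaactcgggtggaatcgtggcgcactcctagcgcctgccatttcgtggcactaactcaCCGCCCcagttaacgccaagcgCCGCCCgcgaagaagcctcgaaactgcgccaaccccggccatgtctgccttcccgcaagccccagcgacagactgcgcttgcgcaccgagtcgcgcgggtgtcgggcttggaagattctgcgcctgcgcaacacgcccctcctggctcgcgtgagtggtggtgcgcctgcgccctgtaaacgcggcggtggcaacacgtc
Psmd13/Sirt3: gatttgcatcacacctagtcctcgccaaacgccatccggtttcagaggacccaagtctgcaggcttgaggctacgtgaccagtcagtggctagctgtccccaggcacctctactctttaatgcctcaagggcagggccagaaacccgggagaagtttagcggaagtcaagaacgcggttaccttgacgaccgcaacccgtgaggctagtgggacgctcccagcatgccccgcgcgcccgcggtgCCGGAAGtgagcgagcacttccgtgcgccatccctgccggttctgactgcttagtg
Adk/Ap3m1: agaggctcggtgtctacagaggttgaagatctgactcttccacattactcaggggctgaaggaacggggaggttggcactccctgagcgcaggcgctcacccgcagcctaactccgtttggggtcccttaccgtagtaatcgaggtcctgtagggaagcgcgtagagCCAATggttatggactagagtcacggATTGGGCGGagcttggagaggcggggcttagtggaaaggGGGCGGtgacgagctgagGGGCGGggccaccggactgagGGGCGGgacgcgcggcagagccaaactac
Sap30bp/Recql5: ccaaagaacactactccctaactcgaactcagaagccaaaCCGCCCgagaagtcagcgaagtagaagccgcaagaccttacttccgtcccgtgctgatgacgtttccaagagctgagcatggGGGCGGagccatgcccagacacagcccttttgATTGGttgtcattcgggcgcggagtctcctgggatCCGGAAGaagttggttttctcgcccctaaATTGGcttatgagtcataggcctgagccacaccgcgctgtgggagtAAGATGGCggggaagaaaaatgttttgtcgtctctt
Kctd2/Atp5h: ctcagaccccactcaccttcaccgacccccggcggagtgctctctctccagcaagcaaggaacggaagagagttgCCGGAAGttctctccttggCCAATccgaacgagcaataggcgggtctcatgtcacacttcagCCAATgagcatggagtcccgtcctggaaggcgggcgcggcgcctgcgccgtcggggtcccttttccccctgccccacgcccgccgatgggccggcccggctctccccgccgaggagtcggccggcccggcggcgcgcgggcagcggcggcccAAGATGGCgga
The Hspe1 sequence, at chr1:55087898-55088197, stands for the mitochondrial chaperonin pair Hspe1 and Hspd1 (Hsp10 and Hsp60). Tap1, the peptide transporter of antigen presentation, and Psmb9, an immunoproteasome subunit, meet at chr17:34187306-34187605, where the minus-strand start of Psmb9 is base 25. Sdha, the catalytic subunit of succinate dehydrogenase, starts at base 174 of the Ccdc127 sequence (chr13:74350067-74350366). Sirt3, the mitochondrial NAD-dependent deacetylase, starts at base 166 of the sequence of the proteasome gene Psmd13 (chr7:140882144-140882443). Ap3m1, an adaptor subunit of vesicle transport, starts at base 119 of the adenosine kinase gene's sequence (chr14:21052324-21052623) by the promoter table. The gene spans place these 2 starts 21 bp apart. The helicase gene Recql5 starts at base 84 beside Sap30bp (chr11:115933409-115933708), and the ATP synthase gene Atp5h at base 44 beside Kctd2 (chr11:115419876-115420175).

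A second set shows head-to-head pairs with no peak between their starts in any library, picked by hand after the values were seen to show such pairs; the choice is not meant to represent the 49 such pairs.
Ribc2/Smc1b: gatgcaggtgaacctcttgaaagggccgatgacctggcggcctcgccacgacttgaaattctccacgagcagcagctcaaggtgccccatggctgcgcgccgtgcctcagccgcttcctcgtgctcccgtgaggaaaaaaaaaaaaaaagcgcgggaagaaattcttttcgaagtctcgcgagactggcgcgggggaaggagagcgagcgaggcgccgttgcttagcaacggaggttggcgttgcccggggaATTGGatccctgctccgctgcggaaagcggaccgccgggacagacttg
Dmgdh/Bhmt2: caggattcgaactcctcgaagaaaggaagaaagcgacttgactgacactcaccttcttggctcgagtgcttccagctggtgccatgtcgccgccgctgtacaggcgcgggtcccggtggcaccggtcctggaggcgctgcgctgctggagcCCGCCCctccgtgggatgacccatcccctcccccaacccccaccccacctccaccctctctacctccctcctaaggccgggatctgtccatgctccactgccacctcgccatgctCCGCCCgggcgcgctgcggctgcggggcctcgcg
H2ac1/H2bc1: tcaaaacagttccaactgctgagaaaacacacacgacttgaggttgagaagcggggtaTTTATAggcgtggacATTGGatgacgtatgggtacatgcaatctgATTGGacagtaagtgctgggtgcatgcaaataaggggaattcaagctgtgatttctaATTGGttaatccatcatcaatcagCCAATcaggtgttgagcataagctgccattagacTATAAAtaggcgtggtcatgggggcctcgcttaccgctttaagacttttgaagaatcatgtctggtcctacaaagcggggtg
Smc1b, the meiotic cohesin subunit, starts at base 110 of the Ribc2 sequence (chr15:85131848-85132147). Bhmt2, an enzyme of homocysteine methylation, starts at base 117 of the sequence of the dimethylglycine dehydrogenase gene Dmgdh (chr13:93674186-93674485). The histone genes H2ac1 and H2bc1 (chr13:23934187-23934486) have their starts 281 bp apart, so that only the H2ac1 start lies in the window. Across the 10 printed sequences there were 13 GC boxes, 12 CCAAT boxes, 5 ETS sites, 2 TATA boxes and 2 YY1 cores, and no E-box, NRF1 core or CRE. Both TATA boxes lie in the H2ac1 sequence.

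Whether a short gap between gene ends carries a peak depended on which ends face each other. This count starts from the annotation alone: all pairs of protein-coding genes with a known strand and with ends within 1 kb of each other were taken, whether or not a region lay there. Of 903 head-to-head pairs, a peak lay between the starts in 850 and 852 under Control, 851 and 850 under FK866 alone, and 849 and 848 under FK866 plus succinate. These are between 93.9% and 94.4% of the pairs. Among 509 head-to-tail pairs the share was between 53.8% and 56.0%, and among 726 tail-to-tail pairs between 3.03% and 3.99%. The libraries differed from each other by far less than the orientations did, and the 3 orientations did not overlap in any library.

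**Figure D1:**
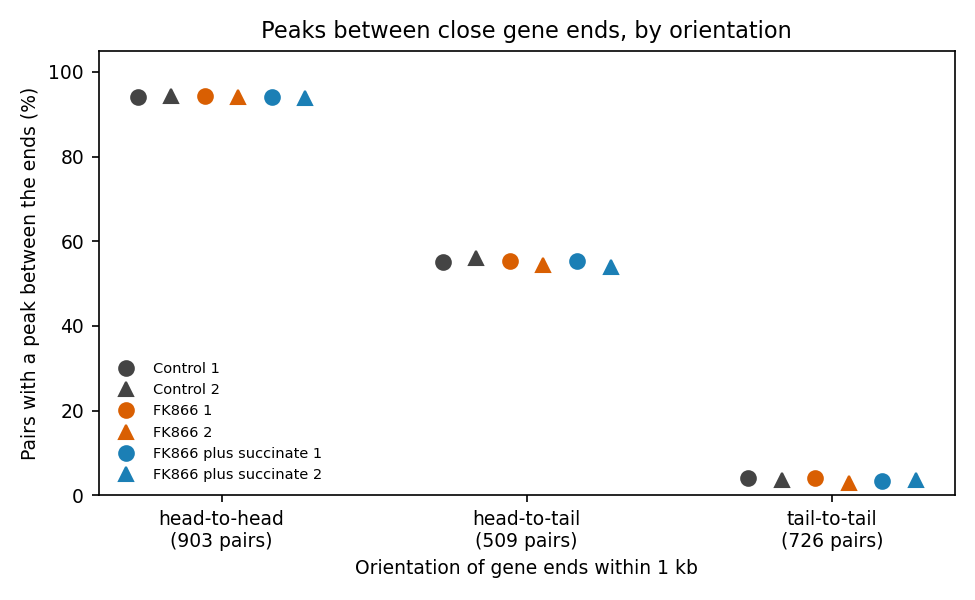
Share of gene pairs with a peak between their ends (y axis, percent) for each orientation (x axis); each symbol is 1 library, circles replicate 1 and triangles replicate 2. Head-to-head pairs sit between 93.9% and 94.4% in all 6 libraries, tail-to-tail pairs between 3.03% and 3.99%.

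Head-to-head pairs exceeded head-to-tail pairs by 39.1 ± 0.660 percentage points and tail-to-tail pairs by 90.5 ± 0.367 points (SD, n = 6 libraries). The two-sided exact sign-flip permutation test over the 6 libraries gave p = 0.03125 for each, the smallest it can give, and 0.03125 after adjustment over the 2 comparisons. The 6 libraries share the same gene pairs and cell type, so the test covers the spread between libraries only. A peak was present in all 6 libraries at 843 head-to-head pairs (93.4%), at 264 head-to-tail pairs and at 12 tail-to-tail pairs. In no library was there a peak at 49 head-to-head pairs, 211 head-to-tail pairs and 669 tail-to-tail pairs (92.1%). This comparison was added after the regions had been seen.

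The 49 head-to-head pairs without a peak were a mixed group. Among them are the meiosis gene Smc1b with Ribc2, the germ cell genes Mov10l1 and Spata22, the thyroid and epithelial oxidase genes Duox2 and Duox1 with their maturation factors Duoxa2 and Duoxa1, the slit diaphragm gene Nphs1 with Kirrel2, the GABA receptor genes Gabra4 and Gabrb1, the basement membrane collagens Col4a1 and Col4a2, and the olfactory receptors Olfr181 and Olfr183. The same group holds broadly used genes, among them the ribosomal protein gene Rps2 with Rnf151, the deadenylase gene Cnot8 with Gm12248, the catenin gene Ctnnd1 with Btbd18, and the DNA repair genes Smarcal1 with Marchf4 and Rad51c with Tex14. These names were chosen after the list was seen, and no test was made of which functions are over-represented. Absence of a peak between annotated starts does not mean absence near the genes: Stat5b and Stat5a, signal transducers of IL-2 and IL-7, have a two-end region with a peak in all 6 libraries that lies 441 bp from the 347-bp stretch between their annotated starts. In total 854 of the 903 head-to-head pairs (94.6%) lay at a two-end region, and of the 49 that did not, 44 had no peak between the starts. The starts of 320 pairs overlap, and the median distance between the starts was 137 bp.

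Pairs with a peak also differed in base composition from pairs without one. The CpG ratio is the observed over expected CpG count in the 300-base promoter of the plus-strand gene, each promoter counted once. Its median was 0.843 over 838 promoters of pairs with a peak in all 6 libraries and 0.373 over 49 promoters of pairs with none. Median GC content was 62.7% and 54.7%. A TATA box was present in 4.65% and 20.4%, a GC box in 66.6% and 32.7%, a CCAAT box in 40.6% and 59.2%, and an ETS site in 28.5% and 14.3%. Promoters whose tabulated start lies within 100 bp of the gene's annotated end gave CpG medians of 0.861 over 654 promoters and 0.371 over 29. The composition is a description over promoters, which are not replicates, and the 2 sets overlap widely: the Ribc2 sequence without a peak has a CpG ratio of 1.08, above that of the Tap1 sequence with one (0.550).

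**Figure D2:**
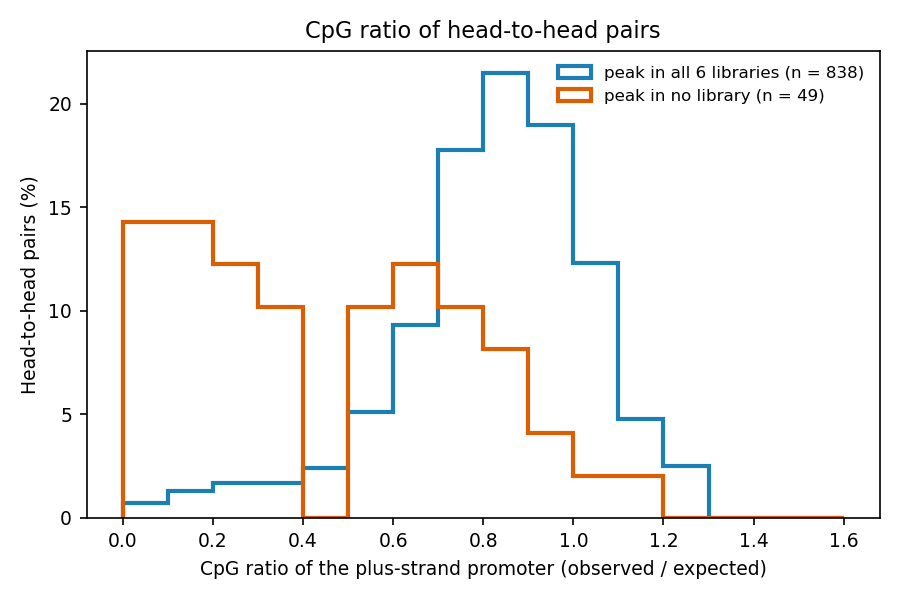
Distribution of the CpG ratio (x axis, observed over expected) of the plus-strand promoter in head-to-head pairs, as the percent of promoters in each bin of 0.1 (y axis). The 838 promoters of pairs with a peak in all 6 libraries centre on a median of 0.843, the 49 promoters of pairs with no peak spread down to 0 around a median of 0.373.

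The plus-strand starts of head-to-head two-end regions (884 with a tabulated promoter) can be set beside 7263 starts at one-end regions and 17492 promoters of all protein-coding genes in the table. Their median CpG ratio was 0.827, against 0.762 and 0.577. ETS sites were present in 26.9%, 16.0% and 11.9% of the 3 sets, YY1 cores in 7.58%, 4.05% and 3.21%, and TATA boxes in 4.86%, 7.04% and 13.3%. GC boxes (64.8%, 67.6% and 46.3%), CCAAT boxes (39.3%, 38.6% and 39.2%), E-boxes (10.4%, 10.1% and 7.91%), NRF1 cores (5.20%, 5.42% and 3.61%) and CREs (3.39%, 3.25% and 2.33%) were close between two-end and one-end starts. A match to these letters is not a bound site.

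Among the 2049 two-end regions, 889 (43.4%) were head-to-head, 401 (19.6%) head-to-tail, 75 tail-to-tail, 43 a start beside a tail on opposite strands, 37 a pair of starts on 1 strand, 3 a pair of tails on 1 strand, and 80 lay at 3 or more genes. The strand of at least 1 gene was not in the promoter table for 521. The label of the set holds in part: 1351 regions (65.9%) reached over both of the closest ends, 1888 (92.1%) touched the stretch between them, and 161 lay to one side. Of the head-to-head regions 801 (90.1%) covered both starts and 10 lay to one side. The widest region was at Wrap53 and Trp53 (chr11:69578071-69581977, 3907 bp), followed by Fam72a and Srgap2 (chr1:131525183-131529052). Just over the limit were Prdx2 and Junb (chr8:84975051-84979053, 4003 bp) and Notch4, Gpsm3 and Pbx2 (4114 bp), and 16 regions of this kind were left out by the limit. The narrowest, at Nek9 and Tmed10 (chr12:85340036-85340398), had a peak in 2 libraries, FK866 2 and FK866 plus succinate 1.

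Most two-end regions were common to all libraries. A peak was present in all 6 for 1920 regions (93.7%), in 3 to 5 for 82 and in exactly 2 for 47, of which 9 had both libraries of 1 group. One-end regions were in all 6 libraries in 86.9% of cases and regions at no gene end in 45.4%. Among two-end regions the share in all 6 was 98.9% for head-to-head, 94.5% for head-to-tail and 48.0% for tail-to-tail. The regions that were not in all 6 comprised 39 tail-to-tail, 22 head-to-tail and 10 head-to-head regions, 46 without a tabulated strand and 12 of other kinds. These shares are a description, since regions were chosen by their peaks.

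Width differed along the same lines. Median width was 1860 bp (quartiles 1526 and 2243) for two-end regions, with medians of 2002 bp for head-to-head, 1688 bp for head-to-tail and 1297 bp for tail-to-tail. Among head-to-head regions the median width was 1940 bp where the starts were under 100 bp apart, 2010 bp at 100 to 200 bp, 2110 bp at 200 to 500 bp, 2014.5 bp at 500 to 1000 bp and 1916 bp beyond. Median width did not rise steadily with the gap.

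A measure that does not use the rule's merging is each library's own peaks, assigned by summit to within 1 kb of an end of 2 or more genes or of exactly 1. In every library the two-end peaks were wider, with medians of 1726 against 1493.5 bp and 1758.5 against 1513 bp in Control, 1740 against 1498 bp and 1747.5 against 1514 bp in FK866, and 1655 against 1462.5 bp and 1640 against 1433 bp in FK866 plus succinate. The mean difference was 225.5 ± 21.1 bp (SD, n = 6 libraries, two-sided exact sign-flip p = 0.03125, the smallest possible). Their -log10 p ranked higher within the library, by 5.19 ± 0.670 percentiles (6 of 6 libraries, exact p = 0.03125). Their median fold enrichment over the local background was lower in 6 of 6 libraries, by a mean difference of -0.19 ± 0.109 (exact p = 0.03125), with medians between 7.68 and 8.17 against 7.79 and 8.45. The fold turns the other way when every deposited peak is used (0.17, exact p = 0.15625). With gene starts only, an added choice, the differences were 314 bp, 5.59 percentiles and -0.33 in fold.

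The coverage profile shows the shape of these peaks. Over 818 head-to-head regions with starts under 1 kb apart, a peak covered the midpoint in between 96.9% and 97.4% of regions per library, 500 bp to the left in between 85.3% and 87.9%, and 500 bp to the right in between 86.9% and 88.6%. Over 7332 one-end regions at a gene start, a peak covered the position 500 bp inside the gene in between 85.1% and 88.4% and the position 500 bp upstream in between 31.2% and 33.3%. The head-to-head profile thus extended into both genes, while the one-start profile leaned into the gene body.

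**Figure D3:**
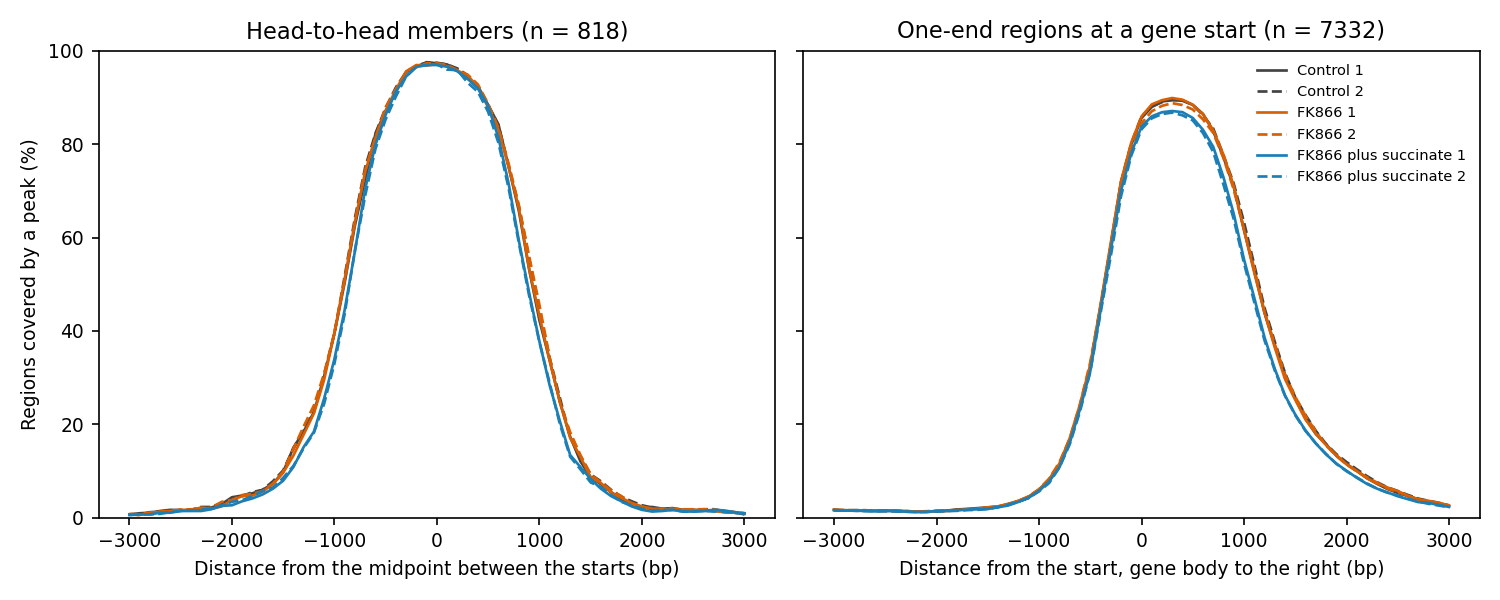
Percent of regions covered by a peak (y axis) against distance in bp (x axis), from the midpoint between the starts of 818 head-to-head regions (left) and from the start of 7332 one-end regions with the gene body to the right (right); 1 line per library, solid for replicate 1 and dashed for replicate 2. The left profile is symmetrical and at 500 bp to the left lies between 85.3% and 87.9%; the right one is at 500 bp upstream between 31.2% and 33.3%.

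The 12 regions with the highest -log10 p percentile, averaged over the 6 libraries, lay at genes of varied function. They included the regions at Rpn2 and Mroh8 (Rpn2 is an oligosaccharyltransferase subunit), AU040320 and Ncdn, 1700123O20Rik and Acin1, Ap3m1 and Adk, Pus7l and Irak4 (Irak4 is the kinase of IL-1 family receptors, among them the IL-33 receptor), Stat2 and Apof, Pmel and Rab5b, Mthfd2 and Mob1a (Mthfd2 is a mitochondrial folate enzyme that uses NAD), Atraid and Slc5a6, Vps35 and Orc6, and Senp8 and Myo9a. At Pus7l and Irak4 (chr15:94543005-94544501) peaks covered 94.5% and 100% of the region in Control, 95.3% and 87.4% in FK866, and 98.5% and 92.8% in FK866 plus succinate. At Ap3m1 and Adk (chr14:21051602-21053155), whose sequence is printed above, the values were 93.0% and 95.8%, 92.3% and 92.0%, and 99.2% and 92.5%. The groups overlapped at the Irak4 region. At Mthfd2 and Mob1a (chr6:83325432-83327352) they were 86.4% and 86.5%, 94.6% and 99.2%, and 84.7% and 71.2%, with both FK866 libraries above the other 4.

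A list of 24 gene pairs, put together as pairs said to share a promoter, was looked up. Of these, 16 lay together at a two-end region, each in all 6 libraries. Not every listed pair need share a promoter: Tmem138, listed with Tmem216, lies head-to-head with Cyb561a3. The 16 of 24 is therefore not a share of known shared promoters. At Hspe1 and Hspd1 (chr1:55086598-55089058) coverage was 96.7% and 97.2% in Control, 98.6% and 97.4% in FK866, and 95.1% and 94.3% in FK866 plus succinate. Psmb9 and Tap1 (chr17:34186349-34188674) had 94.9% and 96.9%, 100% and 94.8%, and 96.5% and 96.1%. The purine synthesis genes Paics and Ppat (chr5:76950203-76952937) varied more, with 87.3% and 82.1%, 87.8% and 97.2%, and 67.6% and 74.4%, the FK866 plus succinate libraries being lowest. Others included Atm with Npat, Mcm4 with Prkdc, Brca1 with Nbr1, Trp53 with Wrap53, Gart with Son, Surf1 with Surf2, Sars2 with Mrps12, Nfs1 with Romo1, Idh3g with Ssr4, Fen1 with Tmem258 and Ncor1 with Pigl. The 8 listed pairs without a shared two-end region included Col4a1 with Col4a2 and Evc with Evc2.

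Gene families differed in how often their members lay at a two-end region, against 17.7% of all protein-coding genes. The share was 68.7% for clustered histone genes (46 of 67), 50.6% for the respiratory chain (44 of 87), 50% for the mitochondrial ribosome (39 of 78), 48.6% for DNA repair (35 of 72) and 47.1% for aminoacyl-tRNA synthetases (16 of 34). It was 36.2% for NAD and succinate genes (21 of 58), 32.1% for the cytosolic ribosome (26 of 81), 31.8% for DNA replication (14 of 44) and 31.4% for the proteasome (16 of 51). ILC2 genes stood at 12.1% (4 of 33), Hox genes at 5.13% (2 of 39) and olfactory receptors at 0.0901% (1 of 1110), and none of 57 protocadherin genes lay at one. These shares follow gene spacing as well as peaks and are given without a test. Over all lists, limma called 0 regions in each comparison.

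The ILC2 identity genes at two-end regions were few. Il17rb, the IL-25 receptor, faces Chdh head-to-head with starts 5 bp apart (chr14:30007897-30010967), and coverage there was 84.3% and 91.2% in Control, 71.5% and 64.3% in FK866, and 83.5% and 88.2% in FK866 plus succinate. Both FK866 libraries were below the other 4, by -19.86 ± 8.80 points against Control (SE, limma adjusted p = 0.936) with 17.94 ± 8.80 points back with succinate (limma adjusted p = 0.491). Il1rl1, the IL-33 receptor, and the IL-18 receptor gene Il18r1 lie head-to-tail (chr1:40465382-40467050) with no peak in Control 1, 69.4% in Control 2, 52.7% and 52.4% in FK866, and 94.1% and 70.5% in FK866 plus succinate. The Stat5b and Stat5a region (chr11:100859792-100862094) had 89.7% and 84.1%, 90.2% and 87.2%, and 98.0% and 87.1%.

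The labelled cell type was looked at through peaks within 1 kb of an end of marker genes. Either end of a gene counted, so a peak need not lie at the marker's start. At a close pair, such as Il17rb with Chdh, a peak cannot be assigned to the marker alone. Of 8 ILC2 markers 6 had a peak in all 6 libraries, and Rora and Il1rl1 had one in 5. All 4 ILC3 markers, 3 B cell markers and 4 myeloid markers had none in any library. Tbx21 and Eomes had a peak in all 6, Ifng and Ncr1 in none, Cd3d, Cd3g and Cd4 in all 6, Cd3e in 1 and Cd8a in none. Among epithelial markers Epcam had a peak in all 6, Cdh1 in 5, Vil1 in 2 and Krt8 in 1. Depth, inferred from the steps of the deposited fold values, was between 1.25 and 2.14 background fragments per position and lowest in FK866 plus succinate 2. The share of values on such a step was between 27.8% and 44.2% per library, so these depths are rough inferences and not counts. Peaks with an adjusted p under 0.05 numbered between 25187 and 28269.

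FK866 compared with Control asks what blocking NAD recycling does at these regions. Of the two-end regions, 2000 and 1996 had a peak under Control and 2000 and 1988 under FK866. The median region was covered by 93.3% and 94.1% in Control and by 93.6% and 94.4% in FK866, so the groups overlapped. The median difference was -0.11 points, with 1040 regions lower and 1003 higher, beside -0.23 points over all 29244 regions. The 2 FK866 libraries were both below both Control libraries at 330 regions, 16.1% (background 15.9%), and both above at 336, 16.4% (background 14.4%). Limma called 0 of the 2049 regions at an adjusted p of 0.05 (background 0% of all regions tested, smallest adjusted p 0.899). At an unadjusted p under 0.05 limma had 30 narrower regions (background 2.81%) and 38 wider (background 2.56%), which are 1.46% and 1.85% of the set. The median SE of a difference was 4.31 points.

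Of the regions with a peak in all 6 libraries and groups apart, the 4 per direction with the smallest limma p are described here; they are not those with the largest differences. At Atmin, a cofactor of the kinase ATM, and Cmc2 (chr8:116943335-116944770) coverage was 99.4% and 99.9% in Control, 86.2% and 82.8% in FK866, and 94.4% and 90.8% in FK866 plus succinate, so both FK866 libraries were lowest (-15.15 ± 3.28 points against Control, SE, limma adjusted p = 0.899). The Wnt ligand genes Wnt3 and Wnt9b (chr11:103772916-103774598) had 99.2% and 95.2%, 77.0% and 59.6%, and 79.0% and 89.0%. Gpat3, a triglyceride synthesis enzyme, with Abraxas1 (chr5:100845427-100847159) had 97.2% and 99.4%, 90.5% and 89.7%, and 95.8% and 92.7%. At all 3 the Control libraries were highest, the FK866 libraries lowest and the FK866 plus succinate libraries between them. At the ciliary gene Tmem237 with Mpp4, coverage was 99.2% and 100% in Control, 91.1% and 90.7% in FK866, and 87.9% and 90.7% in FK866 plus succinate, so the last group lay at or below FK866 there. In a fixed 2 kb window its difference between FK866 and Control was 0.25 points.

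Wider with FK866 were the regions at Tmtc3 and the ciliary gene Cep290 (chr10:100486582-100488104), with 90.7% and 84.7% in Control, 100% and 99.3% in FK866, and 90.9% and 92.6% in FK866 plus succinate. Zfp467 and Sspo (chr6:48443552-48446192) had 79.3% and 80.8%, 93.6% and 99.3%, and 87.6% and 95%. The third, at the histone acetyltransferase gene Kat2a with Hspb9 and Rab5c (chr11:100713376-100714775), had 90.6% and 86.9%, 98.9% and 98.5%, and 91.9% and 94.4%. Togaram1 and Klhl28 (chr12:64964891-64968363) had 87.4% and 88.9% in Control against 99.2% and 98.0% in FK866 and 98.4% and 97.2% in FK866 plus succinate, but its difference was -0.275 points in the fixed window. All 8 of these had a limma adjusted p of 0.899.

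Presence changed at few regions with FK866. Both Control libraries and neither FK866 library had a peak at 8 two-end regions, 0.390% of them (background 2.38%), and the reverse held at 4, or 0.195% (background 2.17%). Among one-end regions these shares were 0.818% and 0.631%. Zfp740 and Itgb7 (chr15:102216581-102217951) are a tail-to-tail pair, so this region lies by their 3′ ends and not at a start. Itgb7 encodes the integrin beta 7 chain of gut-homing lymphocytes. Coverage of the region was 72.4% and 100% in Control, 0% in both FK866 libraries, and 39.1% and 63.2% in FK866 plus succinate. Fam13b with Pkd2l2 had 92.8% and 95.4%, 0% in both, and 0% and 48.8%. Others of this kind were Slc17a7 with Gfy, R3hcc1 with Chmp7, and Ece2 with Eef1akmt4-ece2. Present in FK866 and absent from Control were Gnl3 with Pbrm1 (86.5% and 100%), Foxh1 with Kifc2 (98.1% and 76.0%), Pdzd7 with Lzts2 (49.3% and 100%) and Egfl7 with Agpat2 (56.7% and 54.2%). All 4 lie off the stretch between the closest gene ends, by 964, 492, 606 and 595 bp in that order. Of the lost regions named, those at Zfp740, Slc17a7 and Ece2 lie 587, 526 and 145 bp off it, and those at Fam13b and R3hcc1 touch it. Gnl3 and Pbrm1 are a head-to-head pair with starts 7 bp apart. Between those starts a peak was present in all 6 libraries, Control included, so only the region to the side was gained.

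FK866 plus succinate compared with FK866 asks what succinate adds under the inhibitor. Fewer two-end regions had a peak, 1976 in each of the 2 libraries, and the median region was covered by 88.5% and 88.1%. The group mean of that median was 93.7% ± 0.559 for Control, 94.0% ± 0.593 for FK866 alone and 88.3% ± 0.313 for the group with succinate (SD, n = 2). Both FK866 plus succinate libraries lay below the other 4. An exact permutation test of 2 libraries against 2 cannot give a p under 0.333. One-end regions moved likewise, with means of 91.5%, 91.5% and 87.0%, so the shift is not particular to two-end regions. Inferred depth, in background fragments per position, was 1.74 and 1.25 with succinate, 2.11 and 1.60 under FK866 alone and 1.85 and 2.14 under Control. The part of depth in the shift was not tested.

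Per region, the median difference between FK866 plus succinate and FK866 was -4.49 points, with 1629 regions lower and 416 higher, beside -3.89 points over all regions and -3.68 over one-end regions. The groups were apart, with both libraries lower, at 958 regions, 46.8% (background 28%; 36.1% of one-end regions), and with both higher at 95, 4.64% (background 9.23%). Limma again called 0 two-end regions (background 0%, smallest adjusted p 0.366). At an unadjusted p under 0.05 limma had 341 narrower regions, 16.6% (background 9.27%; 11.2% of one-end regions), and 13 wider, 0.634% (background 2.11%). After quantile normalization of coverage between libraries the median difference was -1.13 points and 120 regions had an unadjusted p under 0.05 in either direction, against 354 without it. The share of all regions past that p after normalization is not given.

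Coverage was also taken by segment. This used 258 of the head-to-head regions with starts 100 to 1000 bp apart. They are a subset, since 154, 209 and 108 regions had starts 100 to 200, 200 to 500 and 500 to 1000 bp apart. The share of bases covered between the starts was 95.5% ± 0.0430 for Control, 95.8% ± 0.0131 for FK866 alone and 95.3% ± 0.0850 for the group with succinate (SD, n = 2). The first 500 bp of the 2 genes were covered by 91.5%, 91.7% and 91.3%. From 500 to 1000 bp inside the genes the values were 60.9% ± 1.25, 61.6% ± 0.692 and 56.0% ± 0.876, and from 1000 to 1500 bp 16.5% ± 0.462, 16.1% ± 0.107 and 13.0% ± 0.0354. The FK866 plus succinate libraries were below all 4 others in every segment, by less in the inner segments than in the outer ones. The inner segments were near full coverage in regions chosen for having a peak, so the segments do not show where coverage could have changed.

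**Figure D4:**
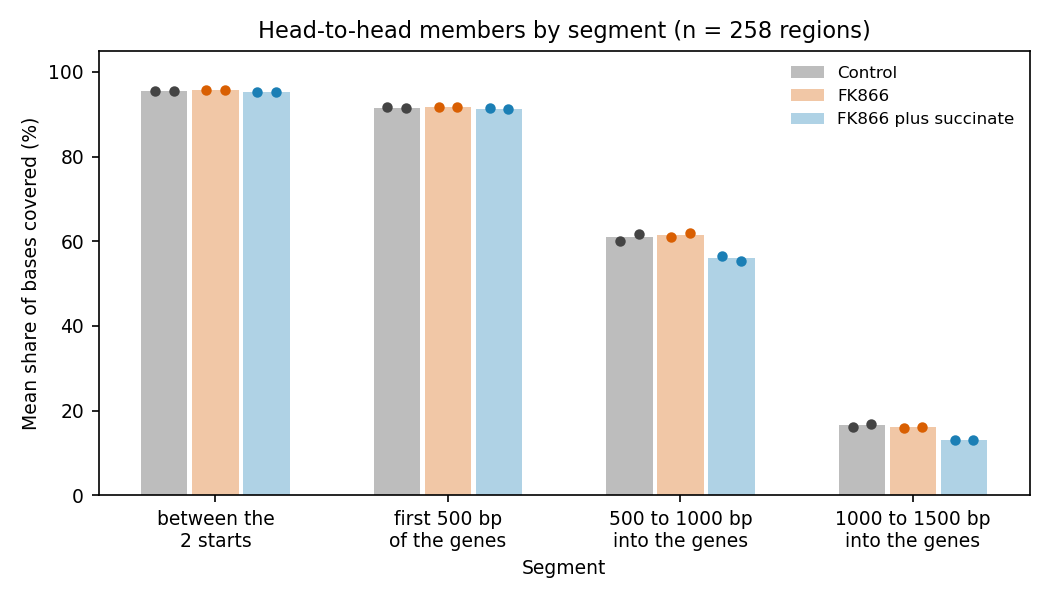
Mean share of bases covered (y axis, percent) in 4 segments of 258 head-to-head regions (x axis); bars are group means and points the 2 libraries of each group. The group means are 95.5%, 95.8% and 95.3% between the starts, where coverage is nearly full, and 60.9%, 61.6% and 56.0% at 500 to 1000 bp inside the genes.

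Of the regions in all 6 libraries with groups apart, 4 are described for having the smallest limma p and lower coverage with succinate. At Recql5 and Sap30bp (chr11:115932731-115934589) coverage was 98.2% and 97.6% in Control, 97.4% and 99.2% in FK866, and 77.7% and 73.7% in FK866 plus succinate, a difference of -22.62 ± 3.76 points from FK866 (SE, limma adjusted p = 0.366). The Hippo kinase gene Lats1 with Pcmt1 (chr10:7680198-7682412) had 97.3% and 96.0%, 100% and 99.8%, and 77.0% and 82.9% (-19.91 ± 3.41 points, limma adjusted p = 0.366). Anks1 and the TFIID gene Taf11 (chr17:27907167-27910316) had 98.4% and 99.0%, 99.8% and 99.0%, and 86.6% and 85.3%. In each the FK866 plus succinate libraries were lowest, and the Control and FK866 libraries were at 96.0% or above. Haghl with Ccdc78 (chr17:25784635-25785839) had 99.0% and 98.0%, 100% and 100%, and 86.2% and 84.1%, but in the fixed window its difference from Control was 0.475 points.

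Against this direction, Rnf31, a ubiquitin ligase of NF-kB signalling, and the interferon factor gene Irf9 (chr14:55603250-55605260) had 89.7% and 85.6% in Control, 74.3% and 77.5% in FK866, and 100% and 93.9% in FK866 plus succinate (21.06 ± 5.50 points above FK866, SE, limma adjusted p = 0.366). Nrap with Habp2, a tail-to-tail pair, had 84.9% and 50.2%, 50.2% and 48.3%, and 87.5% and 98.0%. Dok1 with Loxl3 had 88.9% and 94.9%, 89.6% and 90.7%, and 96.5% and 100%. The FK866 plus succinate libraries were highest at all 3.

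FK866 plus succinate compared with Control gave nearly the same numbers; the 2 comparisons share the FK866 plus succinate libraries. The median difference was -4.44 points (1629 lower, 418 higher, -4.29 over all regions), the groups were apart with both lower at 954 regions, 46.6% (background 29.2%), and with both higher at 114, 5.56% (background 8.87%), limma called 0 (background 0%, smallest adjusted p 0.340), and at an unadjusted p under 0.05 limma had 320 narrower regions, 15.6% (background 9.93%), and 16 wider, 0.781% (background 2.04%). Quantile normalization brought the median to -0.78 points. The smooth muscle and non-muscle myosin genes Myl6 and Myl6b (chr10:128491747-128495226) had 98.3% and 98.3% in Control, 97.9% and 96.0% in FK866, and 78.5% and 77.4% in FK866 plus succinate. Atp5h, a subunit of ATP synthase, with Kctd2 (chr11:115419009-115421266) had 100% and 99.2%, 98.8% and 99.3%, and 86.0% and 86.6% (-13.31 ± 2.30 points from Control, SE, limma adjusted p = 0.340). Wider were the ribonuclease genes Ang and Rnase4 (chr14:51088646-51091743), with 88.3% and 90.8% in Control, 97.5% and 96.6% in FK866, and 99.2% and 99.8% in FK866 plus succinate. Another wider region, at Ccdc28b and Txlna, had 83.0% and 76.0%, 90.2% and 87.1%, and 90.7% and 99.7%.

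Coverage of a fixed 2 kb window, centred between the closest ends (for other regions, on the region's middle), gave calls where whole regions gave none. Limma then called 6 two-end regions between FK866 plus succinate and FK866, all narrower: Tada3 with Arpc4, Mau2 with Sugp1, Tnfaip1 with Ift20, Atp5h with Kctd2, Slc25a32 with Dcaf13, and Mrps18b with Ppp1r10. At Tada3, an adaptor of histone acetyltransferase complexes, and the actin-nucleating Arpc4 (chr6:113377072-113379713) the window was covered by 92.5% and 92.5% in Control, 94.95% and 95.2% in FK866, and 82.0% and 82.1% in FK866 plus succinate, a difference of -13.0 points (limma adjusted p = 0.00636). The Atp5h and Kctd2 window had 99.9% and 99.4%, 98.95% and 99.1%, and 85.4% and 84.8% (-14.0 points, limma adjusted p = 0.00471). The cohesin loader gene Mau2 with Sugp1 had 100% and 100%, 100% and 99.9%, and 90.8% and 90.5%. Against Control 10 two-end regions were called, 9 narrower and Fsd1 with Stap2 wider. Over all regions the same fit called 126 and 164, which is a background of 0.431% and 0.561%, and no two-end region was called for FK866 against Control (background 0%). The 6 and 10 are 0.293% and 0.488% of two-end regions, below that background and below one-end regions (0.818% and 1.02%). Some called windows were at or near full coverage with almost no spread. At Mrps18b and Ppp1r10 both libraries of Control and of FK866 had 100%, and both of FK866 plus succinate 95.85% (-4.15 points).

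The NAD and succinate genes lay at 23 two-end regions, each with a peak in all 6 libraries. Subunit genes of succinate dehydrogenase were among them. At Sdha and Ccdc127 (chr13:74349325-74350909) coverage was 92.6% and 96.6% in Control, 91.9% and 100% in FK866, and 96.7% and 77.9% in FK866 plus succinate, so that 1 library of the last group stood apart from the other. Sdhd with Timm8b and Nkapd1 had 94.3% and 89.7%, 95.6% and 93.3%, and 79.5% and 84.9%. The groups overlapped at Sdha, while at Sdhd both FK866 plus succinate libraries were lowest (-12.26 ± 4.39 points from FK866, SE, limma adjusted p = 0.377). The assembly factor gene Sdhaf2 with Cpsf7 had between 96.4% and 99.7% in every library.

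TCA cycle genes included Dlst, a subunit of the 2-oxoglutarate dehydrogenase complex, with Prox2, at 99.8% and 94.0% in Control, 99.8% and 93.9% in FK866, and 88.4% and 88.2% in FK866 plus succinate. Idh3g, a subunit of NAD-dependent isocitrate dehydrogenase, with Ssr4 had 98.1% and 98.7%, 98.1% and 92.7%, and 88.6% and 87.8%. The malate dehydrogenase gene Mdh2 with Styxl1 had 90.0% and 91.9%, 91.9% and 99.7%, and 85.9% and 82.1%. At all 3 both FK866 plus succinate libraries were lowest, with limma adjusted p between 0.340 and 0.586 over the comparisons with FK866 and with Control. Mdh1 with Wdpcp (92.9% and 86.5%, 100% and 98.4%, 95.2% and 85.6%) and Idh1 with Pikfyve (91.4% and 91.0%, 83.3% and 98.7%, 98.1% and 89.7%) overlapped between FK866 plus succinate and Control.

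Among the NAD synthesis genes, FK866 and Control overlapped at Nmnat1, Nadsyn1 and Nmrk1 and were apart at Naprt. The NMN adenylyltransferase gene Nmnat1 with Lzic had 84.9% and 97.8% in Control, 89.5% and 86.0% in FK866, and 97.8% and 82.4% in FK866 plus succinate. Nadsyn1, NAD synthetase, with Dhcr7 had 88.4% and 97.6%, 100% and 86.7%, and 87.6% and 85.0%, and the nicotinamide riboside kinase gene Nmrk1 with Ostf1 had 100% and 87.2%, 97.0% and 88.6%, and 88.2% and 74.1%. Naprt, which makes NAD from nicotinic acid, with Eef1d had 98.5% and 96.7%, 96.2% and 93.3%, and 88.1% and 91.7%, with both FK866 libraries below Control and both FK866 plus succinate libraries below these. The NAD-consuming sirtuin genes Sirt2, Sirt3, Sirt4, Sirt6 and Sirt7 and the NADase gene Sarm1 were there too. Sirt3 with Psmd13 had 99.4% and 91.5%, 84.6% and 92.4%, and 91.7% and 83.3%, and Sirt2 with Nfkbib 87.1% and 97.2%, 96.9% and 94.1%, and 83.9% and 81.5%. Over the 23 regions the median differences were -0.21, -7.08 and -6.94 points for FK866 against Control, FK866 plus succinate against FK866, and FK866 plus succinate against Control, beside -0.11, -4.49 and -4.44 for all two-end regions. Limma called none of them.

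For FK866 plus succinate against FK866, the median difference was -2.73 points for the tRNA synthetases (17 of 19 regions lower) and -5.11 points for the respiratory chain (38 of 44). Mitochondrial ribosome regions had -3.72 points (30 of 41 lower), cytosolic ribosome regions -4.57 (24 of 28), DNA repair regions -3.38 (30 of 37), histone regions -4.89 (20 of 22), proteasome regions -4.11 (15 of 16) and replication regions -3.82 (10 of 14). The ILC2 list had only 3 regions, with a median of 17.94 points and all 3 higher in the group mean. Of these, 2 had a peak in all 6 libraries, and at Stat5b and Stat5a the FK866 and FK866 plus succinate libraries overlapped. The 2 Hox regions had a median of -9.41 points, 1 lower and 1 higher, and the single olfactory receptor region -22.89. None of these lists had a region called by limma. Since a median of -4.49 points holds for two-end regions in general, the lists are described only.

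Lost and gained regions with succinate were also few. Both FK866 libraries and neither FK866 plus succinate library had a peak at 15 two-end regions, 0.732% (background 4.3%), and the reverse held at 7, 0.342% (background 1.72%). Against Control there were 17 lost, 0.830% (background 4.73%), and 9 gained, 0.439% (background 1.7%). Among one-end regions 2.18% were lost and 0.493% gained against FK866, and 2.55% lost and 0.453% gained against Control. The gained share against Control was thus close between two-end and one-end regions. At Tctex1d4 and Btbd19 (chr4:117124454-117125036) coverage was 98.8% and 83.4% in Control, 100% and 88.3% in FK866, and 0% in both FK866 plus succinate libraries. Tns2, a tensin of focal adhesions, with Spryd3 (chr15:102115658-102116288) had 91.4% and 96.5%, 74.6% and 84.3%, and 0% in both. Gpr27 with Eif4e3 had 96.1% and 84.1%, 52.3% and 46.4%, and 0% in both, and Xaf1 with Fbxo39 had 100% and 81.8%, 32.1% and 54.4%, and 0% in both. These 4 were present in every Control and FK866 library, and the Tns2 region lies 113 bp off the stretch between the gene ends.

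Absent from both Control and both FK866 libraries and present with succinate were the tail-to-tail pair Ttc9b and Map3k10 (chr7:27655929-27656795, 86.0% and 98.2%), Slc34a3 with Rnf224 (100% and 81.3%, 483 bp off the stretch), BC024139 with Eppk1 (100% and 43.0%) and Fsd1 with Stap2 (57.8% and 71.4%). Il18bp, the soluble antagonist of IL-18, with Rnf121 (chr7:102017104-102018385) had no peak in Control 1 or in either FK866 library, 98.4% in Control 2, and 100% and 87.2% in FK866 plus succinate. Ctsz with Nelfcd had none in Control or FK866 1, 75.6% in FK866 2, and 67.3% and 99.2% with succinate, and Dnajc3 with Uggt2 had none in Control or FK866 1, 26.3% in FK866 2, and 74.8% and 55.0% with succinate. With every deposited peak counted, the difference at BC024139 and Eppk1 from Control was -10.7 points.

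**Figure D5:**
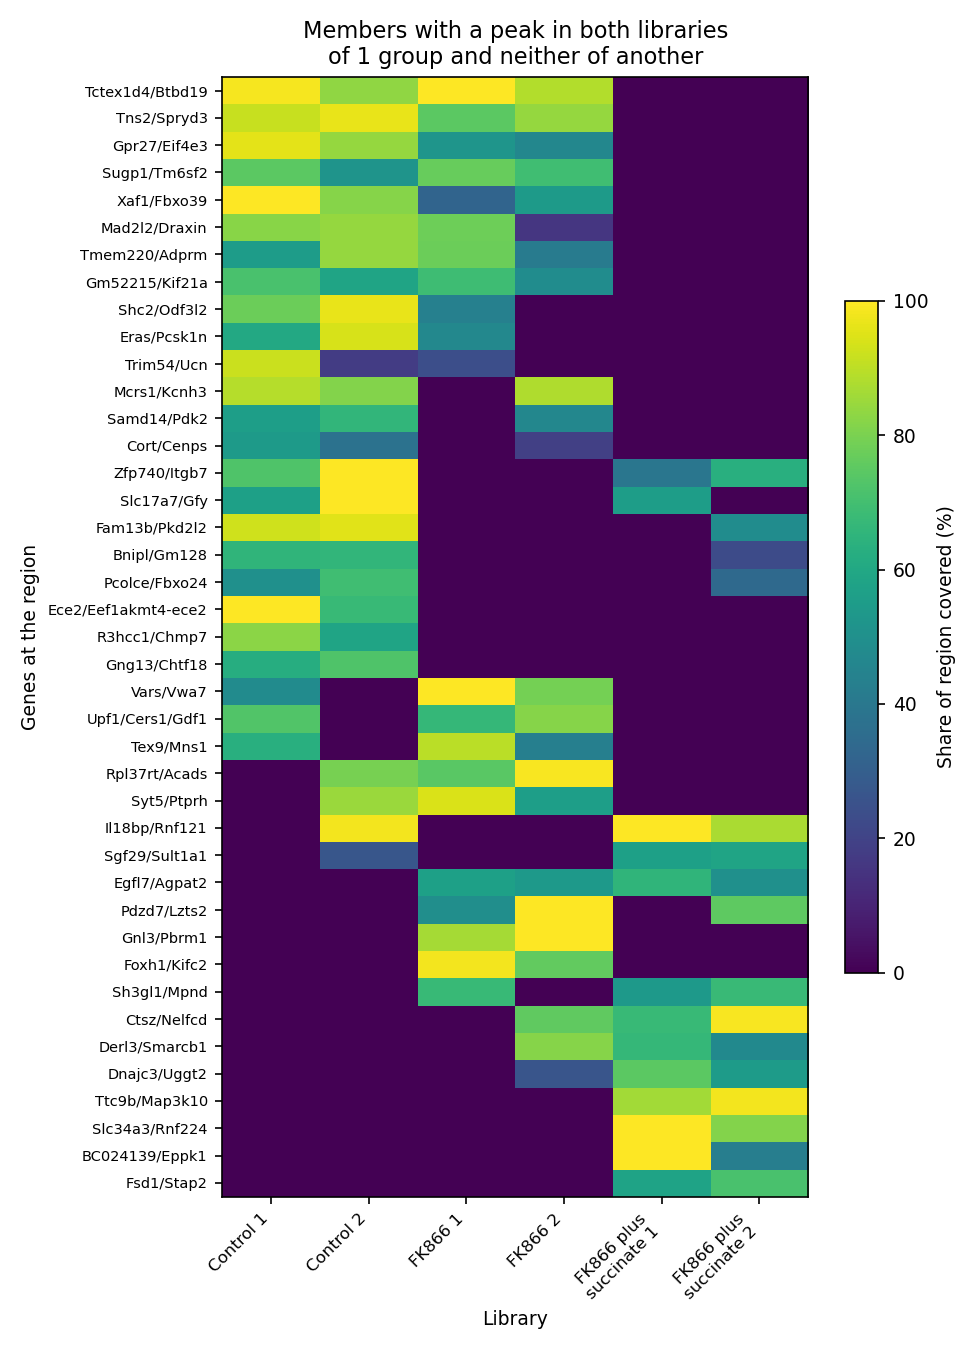
Share of the region covered (colour, percent) in each library (columns) for the 41 two-end regions (rows, named by their genes) with a peak in both libraries of 1 group and in neither of another. The first 8 rows are empty only in FK866 plus succinate, and the last 4 are present only there.

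Altogether 41 two-end regions were lost or gained in at least 1 of the 3 comparisons. Of these 13 were tail-to-tail, 15 without a tabulated strand, 4 head-to-tail and 3 head-to-head, while the whole set held 75 tail-to-tail and 889 head-to-head regions. They were narrower, with a median of 1060 bp against 1860 bp, and weaker, with a median -log10 p percentile of 50.2 against 89.4 where present, and no higher than 72.1 in any library. The lower width and rank follow at least in part from the rule, which needs both libraries of a group to lack a peak. The stretch between the closest ends was touched by 26 of the 41 regions (63.4%), against 92.1% of all two-end regions.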

How the data were processed

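CUT&Tag peak lists of 6 libraries of sorted, cultured mouse ILC2s were analysed, 2 for each of Control, FK866 and FK866 plus succinate, grouped by their labels. The submitters' processing notes name cutadapt 1.9, Bowtie2 2.5.0 and the build mm10, with no roles; the peak caller and antibody are not stated in the labels. The authors' deposited lists, 1 per library, give each peak's start, end and summit, a score, a fold enrichment ratio over local background, and a -log10 p and a -log10 adjusted p. The deposited score, about 10 times the -log10 p, was not used. Folds and p ranks were compared only within a list. Read counts were not used here; relative depth was inferred from the steps between fold values and sets no counting interval.

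Gene spans, strands and promoter sequences came from RefSeq tables of GRCm38.p6; 17492 of 21887 protein-coding genes (79.9%) had a strand. Coverage, the percent of a merged region under a library's peaks, is a width and not a height. It was tested over all 29244 regions with limma 3.58.1 (lmFit, eBayes with trend, no scaling, 1 spread over 6 libraries, Benjamini-Hochberg at 0.05) in R 4.3.3, tested on simulated data. Lost and gained counts, within-library summit comparisons and gene pair shares used Python 3.11.15, pandas 2.3.3 and numpy 2.4.6; exact sign-flip tests were two-sided. Intervals are between libraries only. Alternatives were the peak threshold, 500 bp windows, lists of equal length (25187 peaks), quantile normalization, a 2 kb window, a replicate block, other filters and each library left out; region sets present in all 6 libraries and gene starts only were added after seeing the data. Named are the 12 strongest regions, up to 5 lost or gained per direction and 4 with separated groups per direction and comparison, listed pairs, and NAD, succinate and ILC2 genes. Some named regions are not reported here. Members, lists and tests were chosen with earlier results of these data known.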

Additional observations from a re-analysis of the deposited data

How the results depend on the processing

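Limma called 0 two-end regions in all 3 comparisons with every deposited peak, with peaks at an adjusted p under 0.01, with 500 bp windows, lists of equal length, quantile normalization, regions present in all 6 libraries (an added choice), and without any 1 library. In the fixed 2 kb window it called 6 (FK866 plus succinate against FK866), 0.293% of two-end regions (background 0.431%). Against Control it called 10, 0.488% (background 0.561%). With regions in at least 1 library it called 12 and 8, with no share over all regions given beside them. Both settings called 0 for FK866 against Control, and the cause was not tested. The lost and gained counts that follow also lack a share over all regions under each setting. They show only how far the counts move. Lost regions for FK866 against Control, 8, became 27 with every peak, 3 at an adjusted p under 0.01, 2 with 500 bp windows, 4 with equal lists and 17 when peaks had to cover 50%; the 4 gained became 20 with every peak, 0 with 500 bp windows and 2 with equal lists. For FK866 plus succinate against FK866, the 7 gained became 21 with every peak, 3 with 500 bp windows and 12 at 50% cover. Against Control, the 17 lost became 29 with every peak, 11 with 500 bp windows and 6 with equal lists, and the 9 gained 33 with every peak and 5 with 500 bp windows. Leaving out 1 library loosens the presence rule by construction and gave 13 to 18 lost and 9 to 13 gained for FK866 against Control, 25 to 28 and 13 to 15 for FK866 plus succinate against FK866, and 26 to 32 and 11 to 17 against Control. Without 1 library the summit comparisons kept their direction, between -0.23 and -0.17 in fold, 5.05 and 5.36 percentiles and 221.5 and 232.1 bp; 5 libraries cannot give an exact p under 0.0625. The fold difference reversed to 0.17 with every peak. Fixed windows reversed Tmem237 with Mpp4 (0.25 points) and Togaram1 with Klhl28 (-0.275) for FK866 against Control, and Togaram1 with Klhl28 (-1.65) and Haghl with Ccdc78 (0.475) for FK866 plus succinate against Control, where every peak reversed BC024139 with Eppk1 (-10.7).

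Over regions, deviations of same-numbered libraries correlated by no more than 0.00467 in size. With 2 libraries per group this cannot decide whether same-numbered libraries shared animals or cultures. With the replicate number as a block, limma called 0 regions in each comparison, and 54, 344 and 330 two-end regions had an unadjusted p under 0.05, against 68, 354 and 336 without the block. The share of all regions past that p with the block is not given, so these counts show only how far they move.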
